A study of Homo sapiens with 36 samples.

Results

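The MDA-MB-231 cells compared here were depleted by siRNA of either the paired coactivators YAP and TAZ or the TEAD proteins that tie these coactivators to DNA, and the comparison asks which genes part the 2 knockdowns. MDA-MB-231 cells are a widely used line from a breast cancer without hormone receptors or HER2 amplification. The members are the libraries whose titles carry the first MDA-MB-231 RNA set and the siRNA labels YAPi_TAZi (siRNAs against YAP and TAZ together, 2 libraries) or TEADi (siRNA against TEAD, 2 libraries), 4 of the 36 libraries of the series. Both groups are cells of the same line, and the labels give no drug treatment, dose or time for them. The YAPi and TAZi libraries of the same set (siRNA against 1 coactivator, 2 libraries each) are shown beside them as levels. The control siRNA libraries of the set were not used, so no value below is measured against cells with all of these factors.

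YAP (gene YAP1) and TAZ (gene WWTR1) are the transcriptional coactivators held in check by the Hippo kinase cascade. They have no DNA-binding domain of their own, and they reach most of their targets through TEAD1 to TEAD4, while other partners such as AP-1 factors share many of the same enhancers. TEAD proteins also bind the VGLL cofactors, so that loss of the coactivators and loss of the DNA-binding partners need not be the same state for a gene.

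The 4 libraries were shallow, with 1411304 and 2057390 expected counts in YAPi_TAZi and 1579689 and 2341277 in TEADi. Same-numbered libraries resembled each other across knockdowns. The deposited gene lengths were longer than the effective lengths by 48.0 bases in every replicate 1 knockdown library and by 74.6 in every replicate 2 library, so both groups hold 1 library of each kind and the replicate number was kept as a block. Levels are read counts normalized over the 8 knockdown libraries, given for replicates 1 and 2 in that order, which can be compared between libraries for 1 gene but not between genes. The cell line markers fitted the label. The summed TPM, a read level per gene length, of 12 MDA-MB-231 markers was 1267 and 1913 in YAPi_TAZi and 1652 and 2989 in TEADi, against 70.2 to 136 for 12 luminal markers, 19.6 to 36.1 for 12 basal markers and 3.53 to 9.53 for 12 leukocyte and stroma markers. PGR, GRHL2, PTPRC, CD3E, ALB and HBB were at 0 in all 4 libraries. The basal keratin KRT17 was present mainly in the replicate 1 libraries of both groups (35.4 against 1.90 normalized counts in YAPi_TAZi, 19.1 against 0.859 in TEADi). In bulk RNA, fewer cells with an RNA and less of it per cell cannot be told apart.

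The siRNA sequences are shown because the groups differ by the siRNA the cells received. The oligo list of the study gives 1 sequence for YAP and 1 for TAZ, printed here 5′ to 3′ as the sense strand and as the guide strand that pairs with the mRNA, with guide bases 2 to 8, the seed, in capitals.
YAP siRNA, sense strand: gacaucuucuggucagaga
YAP siRNA, guide strand: uCUCUGACcagaagauguc
TAZ siRNA, sense strand: acguugacuuaggaacuuu
TAZ siRNA, guide strand: aAAGUUCCuaagucaacgu
The YAP sequence lies at chr11:102114365-102114383 (GRCh38, plus strand), in exon 2 of 9 of YAP1 and within its coding sequence. The TAZ sequence lies at chr3:149520887-149520905 (minus strand), in exon 7 of 7 of WWTR1, also within the coding sequence. The YAP sequence also matches the pseudogene YAP1P1 in full. The study's methods describe pooled siRNAs, and whether each pool held further sequences, and which sequences made up TEADi, is not given in the sources used here.

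The knockdowns were read first in the targeted genes themselves. YAP1 stood at 55.8 and 54.1 normalized counts in YAPi_TAZi and 356 and 401 in TEADi, and WWTR1 at 28.6 and 13.3 normalized counts in YAPi_TAZi and 125 and 149 in TEADi. Both were therefore low in both YAPi_TAZi libraries and far from overlapping with TEADi (log2 fold change -2.79, SE 0.25, DESeq2 adjusted p 5.1e-26 for YAP1 and log2 fold change -2.79, SE 0.46, DESeq2 adjusted p 1.8e-07 for WWTR1). YAP1 was also low in YAPi (46.6 and 62.6) and WWTR1 in TAZi (11.3 and 6.90). WWTR1 in YAPi (88.5 and 141) lay near the level of TEADi.

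**Figure D1:**
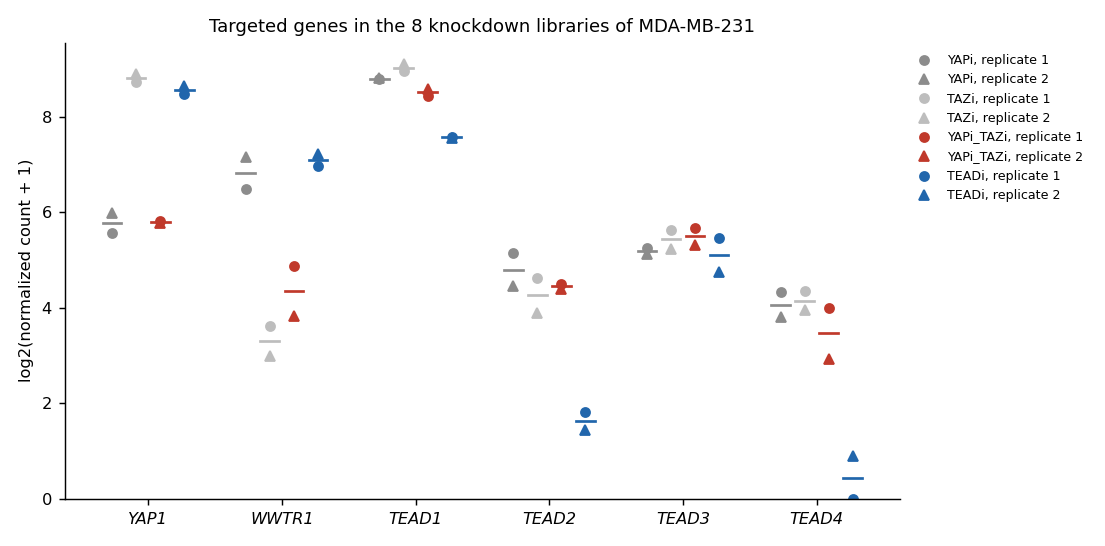
Level of each targeted gene as log2(normalized count + 1) in the 8 knockdown libraries, with circles for replicate 1, triangles for replicate 2 and bars for the mean of 2. YAP1 and WWTR1 sat low in YAPi_TAZi, TEAD1, TEAD2 and TEAD4 sat low in TEADi, and TEAD3 was at similar levels in all groups.

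The TEAD genes went the other way, unevenly. TEAD1, the most counted of the 4, stood at 344 and 384 normalized counts in YAPi_TAZi and 190.1 and 188 in TEADi, a higher level in YAPi_TAZi (log2 fold change 0.94, SE 0.20, DESeq2 adjusted p 8.5e-05). This call was lost with effective length offsets, at a log2 fold change of 0.54. TEAD1 stood at 439 and 448 in YAPi and 496 and 546 in TAZi, so YAPi_TAZi also lay below the single knockdowns. TEAD2 was covered by 16 and 21 reads in YAPi_TAZi and by 2 and 2 in TEADi, a ratio per library size of 10.5 (95% counting interval 3.76 to 40.4). TEAD4 was covered by 11 and 7 reads against 0 and 1, a ratio of 20.3 with a counting interval of 3.21 to 848. DESeq2 gave TEAD2 and TEAD4 no adjusted p at this depth, and edgeR gave TEAD2 an adjusted p of 0.0031. TEAD3 was not called. Its levels were 50.3 and 38.9 normalized counts in YAPi_TAZi and 43.4 and 25.8 in TEADi (log2 fold change 0.40, SE 0.55, DESeq2 adjusted p 0.91), and the 95% interval of the difference ran from -0.67 to 1.47. The TEADi group is hence a group with little TEAD2 and TEAD4 mRNA, partly lowered TEAD1 mRNA and TEAD3 mRNA near the level of the other knockdowns.

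Of 8365 genes tested, 372 (4.45%) were called at a DESeq2 adjusted p under 0.01. Of these, 147 (1.76%) were higher in YAPi_TAZi and 225 (2.69%) were lower. The change was at least 2-fold for 72 of the higher and 120 of the lower genes. All 372 had the same direction in both replicate pairs, a property the test favors. In 368 of them the 2 groups did not overlap, against 52.6% of all genes tested. Protein-coding genes made up 364 of the calls. All 372 were also called by edgeR, which called 1260 (11.2%) of the 11229 genes it tested, 5.2% higher and 6.02% lower, so its counts in the lists that follow stand against those shares.

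**Figure D2:**
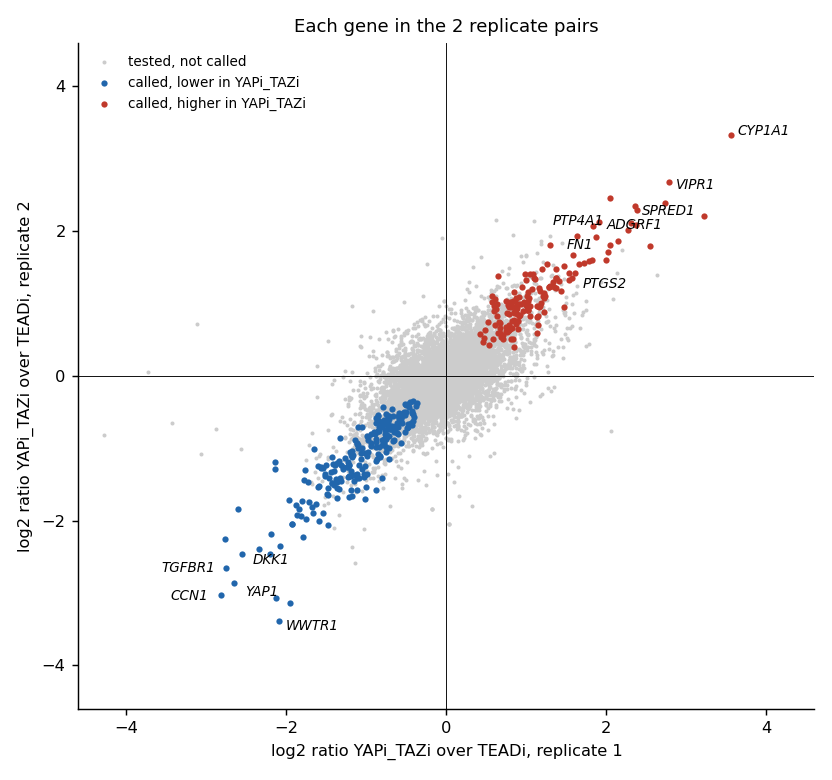
Log2 ratio of YAPi_TAZi over TEADi in replicate pair 1 (x axis) and pair 2 (y axis), from normalized counts plus 1, for each gene tested. Called genes are colored by direction, and the 372 calls lie at the lower left (225 genes) and upper right (147 genes).

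Among called genes lower in YAPi_TAZi, CCN1 (CYR61) had the lowest fold change. This secreted matricellular protein is a standard readout of YAP and TAZ. CCN1 stood at 66.6 and 55.0 normalized counts in YAPi_TAZi and 476 and 456 in TEADi, 7.73-fold lower (log2 fold change -2.95, SE 0.23, DESeq2 adjusted p 8.2e-34). Its levels in the single knockdowns were 605 and 618 in YAPi and 517 and 527 in TAZi, so that YAPi_TAZi stood below the other 6 libraries and TEADi a little below the single knockdowns. DKK1, a secreted Wnt antagonist, had the same shape, with 140.1 and 174 normalized counts in YAPi_TAZi and 828 and 966 in TEADi (log2 fold change -2.52, SE 0.17, DESeq2 adjusted p 4e-47). It stood at 1103 and 1276 in YAPi and 978 and 1102 in TAZi. CXCL8, the neutrophil chemokine interleukin 8, was at 34.0 and 34.2 normalized counts in YAPi_TAZi and 147 and 178 in TEADi (log2 fold change -2.25, SE 0.37, DESeq2 adjusted p 1.2e-07), with the TEADi level close to that of YAPi (151 and 176) and TAZi (138 and 171). On GRCh38 these genes lie at chr1:85580761-85584589 (plus strand), chr10:52314281-52318042 (plus strand) and chr4:73740519-73743716 (plus strand). For these 3 genes YAPi_TAZi sat apart and TEADi was nearer to the single knockdowns. Both TEADi libraries were still below every single-knockdown library for CCN1 and DKK1, and overlapped with them for CXCL8.

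Other genes of the 12 with the lowest fold change, among protein-coding calls with a mean count of at least 50, already stood low in 1 single knockdown. GLTP, a glycolipid transfer protein, was at 12.2 and 24.7 normalized counts in YAPi_TAZi and 89.3 and 122 in TEADi (log2 fold change -2.54, SE 0.49, DESeq2 adjusted p 1.3e-05), and its level was 23.8 and 31.7 in TAZi but 128 and 138 in YAPi. DENND6A, a guanine nucleotide exchange factor for Rab proteins, followed the same order, with 28.6 and 35.1 normalized counts in YAPi_TAZi and 149 and 188 in TEADi (log2 fold change -2.41, SE 0.37, DESeq2 adjusted p 1.1e-08) and with 51.1 and 61.4 in TAZi and 111 and 106 in YAPi. IPO8, a nuclear import receptor, was at 16.3 and 26.6 normalized counts in YAPi_TAZi and 77.8 and 124 in TEADi and at 35.2 and 42.1 in TAZi. JKAMP, a membrane protein that binds the kinase JNK1, was the reverse case. It was at 38.1 and 66.4 normalized counts in YAPi_TAZi and 236 and 241 in TEADi (log2 fold change -2.21, SE 0.31, DESeq2 adjusted p 1.7e-10), at 34.2 and 39.1 in YAPi and at 228 and 249 in TAZi. PTX3, a secreted pentraxin of innate immunity, was at 32.6 and 17.1 normalized counts in YAPi_TAZi and 129 and 159 in TEADi, with means of 58.1 ± 2.74 in YAPi and 102 ± 2.32 in TAZi (SD, n = 2). Counting each of the 12 by whether the mean log2 level of a single knockdown was nearer to YAPi_TAZi than to TEADi, 3 were near in neither single (CCN1, DKK1 and CXCL8), 3 in YAPi only (YAP1, PTX3 and JKAMP), 4 in TAZi only (WWTR1, GLTP, DENND6A and IPO8) and 2 in both, TGFBR1 among them.

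TGFBR1 differed from CCN1 in where TEADi sat. TGFBR1, the type I receptor for TGF-beta, stood at 113 and 141 normalized counts in YAPi_TAZi and 767 and 897 in TEADi (log2 fold change -2.71, SE 0.18, DESeq2 adjusted p 3.4e-49), and at 287 and 349.5 in YAPi and 103 and 120.0 in TAZi. The TEADi libraries thus held the highest TGFBR1 counts of the 8. TGFBR1 lies at chr9:99104038-99154192 (plus strand). Over all 225 lower genes, the TAZi level was nearer to YAPi_TAZi in 139 and the YAPi level in 105, and both were in 70.

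**Figure D3:**
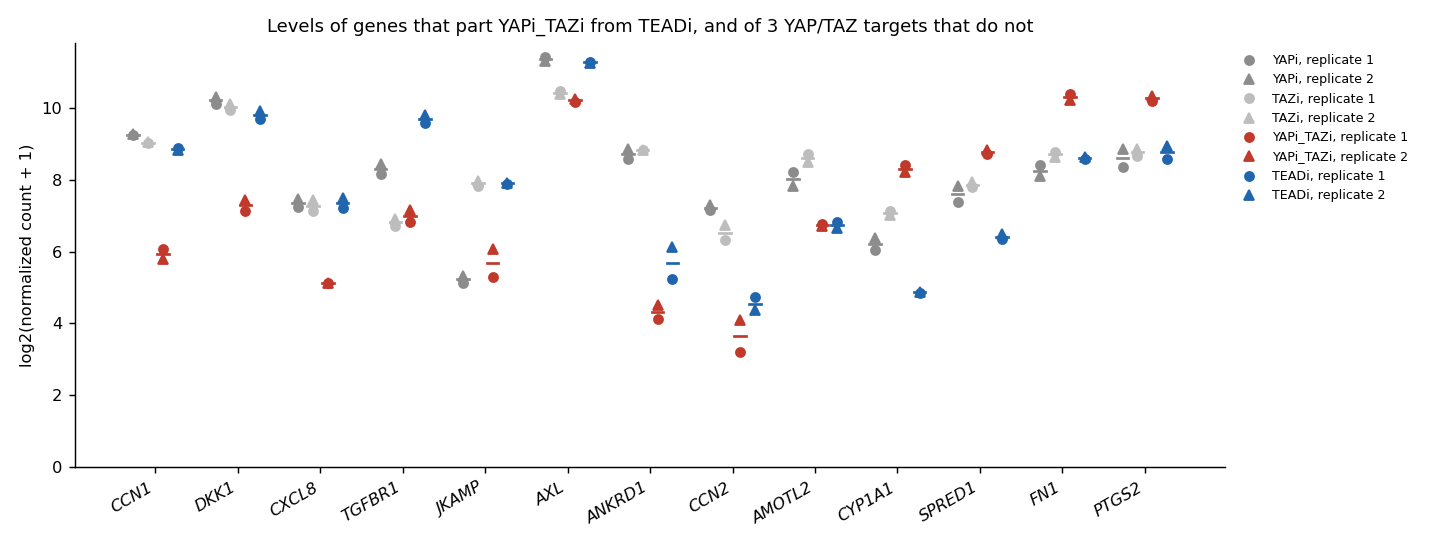
Level of 13 genes as log2(normalized count + 1) in the 8 knockdown libraries, with circles for replicate 1, triangles for replicate 2 and bars for the mean of 2. CCN1, DKK1 and CXCL8 were lowest in YAPi_TAZi, with TEADi nearer to the single knockdowns, TGFBR1 was highest in TEADi, and ANKRD1, CCN2 and AMOTL2 were low in both YAPi_TAZi and TEADi against the single knockdowns.

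Among called genes, the highest fold change in the other direction was that of CYP1A1, a cytochrome P450 induced through the aryl hydrocarbon receptor. It stood at 340.0 and 294 normalized counts in YAPi_TAZi and 28.1 and 28.3 in TEADi, 11.1-fold higher in YAPi_TAZi (log2 fold change 3.48, SE 0.30, DESeq2 adjusted p 1.4e-27). The single knockdowns lay between, at 64.7 and 81.7 in YAPi and 139.7 and 128 in TAZi. VIPR1, a receptor for vasoactive intestinal peptide, was at 259.7 and 225 normalized counts in YAPi_TAZi and 37.0 and 34.4 in TEADi (log2 fold change 2.76, SE 0.31, DESeq2 adjusted p 4.9e-16). SPRED1, an inhibitor of Ras to MAP kinase signaling, was at 416 and 456 normalized counts in YAPi_TAZi and 80.4 and 88.5 in TEADi (log2 fold change 2.37, SE 0.22, DESeq2 adjusted p 7.1e-25), with 164 and 228 in YAPi and 220.3 and 245 in TAZi. The 3 genes lie at chr15:74719542-74725536 (minus strand), chr3:42489299-42537573 (plus strand) and chr15:38252836-38357249 (plus strand). For VIPR1 and SPRED1 the TEADi libraries were the lowest of the 8 and YAPi_TAZi the highest.

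The phosphatase genes PTPN13 and PTP4A1 were also in this group. PTPN13 stood at 209 and 214 normalized counts in YAPi_TAZi and 39.6 and 49.8 in TEADi (log2 fold change 2.24, SE 0.32, DESeq2 adjusted p 2.4e-10). PTP4A1 stood at 566 and 665 normalized counts in YAPi_TAZi and 116 and 165 in TEADi (log2 fold change 2.13, SE 0.18, DESeq2 adjusted p 1.3e-27). The adhesion receptor gene ADGRF1 had its low values in TEADi, with 602 and 686 normalized counts in YAPi_TAZi and 159.5 and 156 in TEADi (log2 fold change 2.03, SE 0.18, DESeq2 adjusted p 8.2e-27) and with 464 and 509 in YAPi and 502 and 507 in TAZi. CYP24A1, the enzyme that inactivates vitamin D, had the same order, with 88.4 and 112 normalized counts in YAPi_TAZi and 19.1 and 30.1 in TEADi (log2 fold change 2.03, SE 0.46, DESeq2 adjusted p 0.00044) and single-knockdown levels of 84.6 to 121. In these 2 genes the single knockdowns lay with YAPi_TAZi, and TEADi was apart.

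FN1 and KLF9 showed the opposite order. FN1, fibronectin, was at 1339 and 1200.3 normalized counts in YAPi_TAZi and 379 and 395 in TEADi (log2 fold change 1.71, SE 0.14, DESeq2 adjusted p 3.2e-30), and at 338 and 274 in YAPi and 434 and 399.5 in TAZi. KLF9, a zinc finger transcription factor induced by glucocorticoids, was at 175 and 171 normalized counts in YAPi_TAZi and 47.2 and 44.7 in TEADi (log2 fold change 1.91, SE 0.34, DESeq2 adjusted p 1.1e-06), and at 47.5 and 47.0 in YAPi and 40.9 and 47.6 in TAZi. Both therefore stood high in the double knockdown alone. The rest of the 12 were DAB2IP, a Ras GTPase-activating protein, SLC23A2, a vitamin C transporter, and BICC1, an RNA-binding protein, with log2 fold changes of 1.82, 1.79 and 1.70 (DESeq2 adjusted p 0.0032, 1.9e-08 and 7e-05). The call of DAB2IP was lost with a mean count of at least 10, and that of BICC1 with effective length offsets. Across all 147 higher genes, the TAZi level was nearer to YAPi_TAZi in 94 and the YAPi level in 74.

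Non-coding RNAs were few. SNHG16, a small nucleolar RNA host gene, was at 385 and 429.8 normalized counts in YAPi_TAZi and 157 and 184 in TEADi (log2 fold change 1.26, SE 0.19, DESeq2 adjusted p 1.4e-08), and OIP5-AS1, also called Cyrano, had a log2 fold change of 0.74 (DESeq2 adjusted p 0.0038). Both overlap other genes in the annotation and the counting is not stated to use strand, so their counts may include reads of those genes. NAMPTP1, a processed pseudogene of NAMPT, had a log2 fold change of -0.52 and passed the threshold narrowly, but not without the replicate block, and NAMPT itself changed by -0.45 (DESeq2 adjusted p 0.0014), so reads of the 2 may have been split between them. ENSG00000275993, marked as an artifact in the annotation, had a log2 fold change of -1.58 (DESeq2 adjusted p 9.6e-15).

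Established targets of YAP, TAZ and TEAD held calls in both directions. Of 22 on the list, 18 were tested, 7 were lower in YAPi_TAZi and 1 was higher, with a median log2 fold change of -0.60 against -0.03 over all genes tested. Over all genes, DESeq2 called 2.69% lower and 1.76% higher, and this background holds for each list. AXL, a receptor tyrosine kinase, was at 1148 and 1220.2 normalized counts in YAPi_TAZi and 2478 and 2446 in TEADi (log2 fold change -1.06, SE 0.12, DESeq2 adjusted p 1.2e-16), with 1423 and 1330.2 in TAZi and 2713 and 2527 in YAPi. TGFB2, a TGF-beta ligand, was at 38.1 and 44.6 normalized counts in YAPi_TAZi and 128 and 152 in TEADi (log2 fold change -1.76, SE 0.38, DESeq2 adjusted p 0.00012). PTPN14, a phosphatase that restrains YAP, was at 271 and 260.0 normalized counts in YAPi_TAZi and 479.8 and 559 in TEADi (log2 fold change -0.97, SE 0.17, DESeq2 adjusted p 2.1e-06). The other lower genes were CCN1, FJX1, F3 and MYOF, at log2 fold changes of -2.95, -1.63, -0.76 and -0.56. The 1 higher gene was NT5E, the ectonucleotidase CD73, at 1164 and 1397 normalized counts in YAPi_TAZi and 813 and 836 in TEADi (log2 fold change 0.63, SE 0.13, DESeq2 adjusted p 9.6e-05). The call of NT5E was lost with effective length offsets, at a log2 fold change of 0.50. On this list edgeR called 9 of 20 lower and 2 higher.

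The classical targets ANKRD1, CCN2 (CTGF) and AMOTL2 were not called, and they stood low in both groups. AMOTL2, an angiomotin that binds YAP, was at 107 and 104 normalized counts in YAPi_TAZi and 112 and 100.5 in TEADi, against 294 and 225 in YAPi and 418 and 357 in TAZi. The log2 difference between YAPi_TAZi and TEADi was -0.01 with a 95% interval of -0.65 to 0.64 (DESeq2 adjusted p 1). ANKRD1, a nuclear ankyrin repeat protein, was at 16.3 and 21.8 normalized counts in YAPi_TAZi and 37.0 and 68.7 in TEADi, against 381 and 459.9 in YAPi and 454 and 454 in TAZi. Its difference of -1.44 missed the threshold with DESeq2 (adjusted p 0.15) and passed it with edgeR (adjusted p 0.0022). CCN2 was at 8.16 and 16.1 normalized counts in YAPi_TAZi and 25.5 and 19.8 in TEADi, against 141 and 156 in YAPi and 78.3 and 106 in TAZi, with a log2 difference of -0.92 (SE 0.85) and no adjusted p from DESeq2 (edgeR adjusted p 0.26). CCN1 and CCN2, which encode related proteins, thus both had TEADi below the single knockdowns, but at unlike distances. The mean TEADi level was 466 ± 14.1 for CCN1, against 612 ± 9.43 in YAPi and 522 ± 7.4 in TAZi, and 22.6 ± 4.08 for CCN2, against 148 ± 10.5 and 91.9 ± 19.2 (normalized counts, SD, n = 2).

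Promoters are printed for 4 of these genes, to set side by side what their first 250 bases hold. They are given 5′ to 3′ on the strand of the gene and end at the last base before the RefSeq start. Capitals mark GGAATG, the core of the TEAD motif, and TGANTCA on either strand. TGANTCA is a loose form of the AP-1 motif TGA(C/G)TCA, since any middle base was allowed, and its matches need not be AP-1 sites.
ANKRD1, chr10:90921088-90921337 (minus strand): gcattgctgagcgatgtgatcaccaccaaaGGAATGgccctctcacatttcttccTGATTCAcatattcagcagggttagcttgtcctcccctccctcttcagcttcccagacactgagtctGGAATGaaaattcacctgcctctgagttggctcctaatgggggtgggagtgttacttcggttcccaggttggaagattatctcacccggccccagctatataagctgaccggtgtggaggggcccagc
CCN2, chr6:131951373-131951622 (minus strand): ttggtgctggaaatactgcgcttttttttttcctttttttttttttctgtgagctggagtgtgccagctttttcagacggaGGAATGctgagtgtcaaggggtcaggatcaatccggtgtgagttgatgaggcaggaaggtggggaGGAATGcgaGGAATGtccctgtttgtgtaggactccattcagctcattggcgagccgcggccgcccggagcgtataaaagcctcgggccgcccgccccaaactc
DKK1, chr10:52314031-52314280 (plus strand): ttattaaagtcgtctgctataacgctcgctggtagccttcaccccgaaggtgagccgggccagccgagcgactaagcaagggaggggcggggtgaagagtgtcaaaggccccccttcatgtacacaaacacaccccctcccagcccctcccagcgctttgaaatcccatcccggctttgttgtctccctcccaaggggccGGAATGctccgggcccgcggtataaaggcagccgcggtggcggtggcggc
SPRED1, chr15:38252586-38252835 (plus strand): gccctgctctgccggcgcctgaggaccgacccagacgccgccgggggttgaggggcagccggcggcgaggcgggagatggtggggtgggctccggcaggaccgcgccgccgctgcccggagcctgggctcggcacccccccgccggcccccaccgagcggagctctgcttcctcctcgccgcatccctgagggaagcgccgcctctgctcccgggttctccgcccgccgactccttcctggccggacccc
The windows of ANKRD1 and CCN2, low in both groups, held 2 and 3 GGAATG cores. That of ANKRD1 also held 1 TGANTCA, which reads TGATTCA and so lacks the C or G in the middle. That of AMOTL2, also low in both groups, held neither motif. The window of DKK1, lowest in YAPi_TAZi, held 1 GGAATG, as did that of PTPN13, a higher gene, and those of SPRED1, CYP1A1, FN1, VIPR1 and TGFBR1 held neither motif. Over these 10 windows the motifs thus did not divide the genes by their pattern. Sequences are those of RefSeq on GRCh38.p14. The table gave a promoter for 6836 of the 8365 genes tested. In windows from 250 bases before to 50 after the start, searched on both strands, GGAATG was present for 12.1% of the higher and 15.9% of the lower genes, against 10.5% of all tested and 14% of all promoters in the table. TGANTCA was present for 6.45% of the higher and 7.14% of the lower genes, against 4.43% of those tested and 7.76% of all promoters. With the genes called by edgeR among those that DESeq2 tested (458 higher and 544 lower promoters), the shares of GGAATG were 10.5% and 13.1%. Those of TGANTCA were 5.02% and 7.35%. These shares describe letters near a start and carry no test, and enhancers were not searched.

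Markers of the line were called in 1 direction. Of 12 MDA-MB-231 markers, 11 were tested, 7 were lower in YAPi_TAZi (against 2.69% of all genes), 4 were not called, none was higher, and all 11 fold changes were negative (median -0.59 against -0.03 over all genes). ANXA1, the phospholipid-binding protein annexin A1, was at 612 and 714 normalized counts in YAPi_TAZi and 1841 and 2057 in TEADi (log2 fold change -1.56, SE 0.12, DESeq2 adjusted p 4.1e-32), with both TEADi libraries above the single knockdowns (812 to 1063). PLAU, the urokinase protease, was at 282 and 275 normalized counts in YAPi_TAZi and 689 and 662 in TEADi (log2 fold change -1.28, SE 0.16, DESeq2 adjusted p 5.6e-13), where YAPi_TAZi was apart from YAPi (818 and 788) and TAZi (609 and 558). VIM, the mesenchymal intermediate filament vimentin, changed by -0.59 and CAV1, the caveolar coat protein, by -0.79. The luminal keratin KRT19 was at 344 and 344 normalized counts in YAPi_TAZi and 268 and 249.9 in TEADi and was not called (DESeq2 adjusted p 0.23).

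Calls among matrix, adhesion and cytoskeletal genes were mostly lower. Of 24 extracellular matrix genes tested, 6 were lower and 1, FN1, was higher (median -0.25), and edgeR called 9 lower and 2 higher. Tenascin C, TNC, was at 141 and 131 normalized counts in YAPi_TAZi and 397 and 387 in TEADi (log2 fold change -1.53, SE 0.20, DESeq2 adjusted p 2e-11), and LAMB3, a laminin beta chain, was at 526 and 486 normalized counts in YAPi_TAZi and 986 and 836 in TEADi (log2 fold change -0.84, SE 0.14, DESeq2 adjusted p 2.8e-07). LAMC1, COL5A1 and LOXL2, which encode a laminin chain, a collagen chain and a lysyl oxidase, were lower too, with log2 fold changes of -0.72, -0.73 and -0.69. The integrin alpha subunits ITGA2, ITGAV and ITGA3 were the genes called by DESeq2 among 13 integrin and adhesion genes, all lower, with ITGA3 (log2 fold change -0.43, DESeq2 adjusted p 0.0041) not called without the replicate block (adjusted p 0.052). The list median was -0.31, and edgeR called 6 of 15 lower and 1 higher. ITGA2, a collagen receptor subunit, was at 286 and 327 normalized counts in YAPi_TAZi and 757 and 817 in TEADi (log2 fold change -1.36, SE 0.15, DESeq2 adjusted p 6.2e-16), and the single knockdowns held 253 to 335, beside YAPi_TAZi.

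Of 27 actin and SRF-related genes tested, 6 were lower and none was higher with DESeq2 (median -0.17), against 2.69% and 1.76% of all genes. EdgeR called 7 of 29 lower and 3 higher, which were MYL9, CNN2 and SRF (log2 fold changes of 1.10, 0.43 and 1.31, with DESeq2 adjusted p of 0.035, 0.23 and 0.021). TAGLN2, a calponin family actin-binding protein, was at 468 and 332 normalized counts in YAPi_TAZi and 951 and 862 in TEADi (log2 fold change -1.20, SE 0.15, DESeq2 adjusted p 1.5e-12). The myosin light chain genes MYL12A and MYL12B, the filamin gene FLNA and the tropomyosin gene TPM3 were lower, with log2 fold changes from -0.77 to -0.46. Of 14 protease and inhibitor genes tested, 3 were lower, PLAU and ADAM10 among them, and none was higher (median -0.50), and edgeR called 9 of 17 lower and 2 higher.

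The TGF-beta pathway held calls in both directions. Of 19 members tested, 3 were lower and 1 was higher (median -0.25), and edgeR called 5 of 21 lower and 3 higher. The ligand gene TGFB2 and the receptor gene TGFBR1 were lower, as described, and SKIL, a repressor of SMAD proteins and itself a TGF-beta target, was at 201 and 259 normalized counts in YAPi_TAZi and 346 and 498 in TEADi (log2 fold change -0.87, SE 0.18, DESeq2 adjusted p 0.00012). The type II receptor gene TGFBR2 was higher, at 582 and 542 normalized counts in YAPi_TAZi and 356 and 367 in TEADi (log2 fold change 0.63, SE 0.16, DESeq2 adjusted p 0.0026).

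Inflammatory genes held DESeq2 calls in both directions. Of 15 NF-kB and chemokine genes tested, CXCL8 and CXCL1 were lower and PTGS2 was higher (median -0.16), whereas edgeR called 8 of 18 lower and 1, PTGS2, higher. CXCL1 was at 15.0 and 5.69 normalized counts in YAPi_TAZi and 68.9 and 55.0 in TEADi (log2 fold change -2.70, SE 0.65, DESeq2 adjusted p 0.001). PTGS2, the inducible cyclooxygenase 2, was at 1172 and 1298 normalized counts in YAPi_TAZi and 384 and 487 in TEADi (log2 fold change 1.505, SE 0.14, DESeq2 adjusted p 4.8e-24), above the single knockdowns (325 to 466) as well as TEADi. IL6, the only called gene of 12 STAT3 signaling genes tested, was at 92.5 and 85.4 normalized counts in YAPi_TAZi and 213 and 258 in TEADi (log2 fold change -1.41, SE 0.27, DESeq2 adjusted p 8.9e-06), with 71.3 and 67.0 in YAPi and 345 and 389.8 in TAZi. The call of IL6 was lost with effective length offsets, at a log2 fold change of -1.35. In the STAT3 list, edgeR called 2 of 17 lower and none higher. Of 6 AP-1 genes tested, 1 was called, FOSL2, at 999.5 and 866 normalized counts in YAPi_TAZi and 647 and 489 in TEADi (log2 fold change 0.73, SE 0.14, DESeq2 adjusted p 1.9e-05). In the AP-1 list, edgeR called 2 of 9 higher and 1 lower.

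Calls among lipid and stress genes were mostly higher in YAPi_TAZi. Of 19 cholesterol synthesis genes tested, 5 were higher and 1 was lower (median 0.56, the highest of the lists with at least 4 members tested), against 1.76% and 2.69% of all genes, and edgeR called 9 of 23 higher and 2 lower. MSMO1, a methylsterol oxidase, was at 256 and 329 normalized counts in YAPi_TAZi and 112 and 163 in TEADi (log2 fold change 1.09, SE 0.22, DESeq2 adjusted p 6e-05). IDI1, FDFT1 and CYP51A1, enzymes of the same path, were higher, with log2 fold changes of 0.81, 1.05 and 0.76. The calls of MSMO1, IDI1 and FDFT1 were lost with effective length offsets (log2 fold changes of 1.05, 0.80 and 0.91), and those of IDI1 and FDFT1 also with a mean count of at least 10 and with protein-coding genes only. Of 22 ATF4 and unfolded protein genes tested, SLC7A5, an amino acid transporter, and DDIT4, an inhibitor of mTORC1, were higher (median 0.25), and edgeR called 6 of 25 higher and 2 lower. SLC7A5 was at 785 and 693 normalized counts in YAPi_TAZi and 390.5 and 323 in TEADi (log2 fold change 1.05, SE 0.15, DESeq2 adjusted p 1.1e-09), and DDIT4 at 496 and 511 normalized counts in YAPi_TAZi and 250.1 and 193 in TEADi (log2 fold change 1.20, SE 0.18, DESeq2 adjusted p 1.2e-08). Of 26 glycolysis and hypoxia genes tested, PGAM1, a glycolytic mutase, and BNIP3, a mitophagy receptor, were higher and P4HA2, a collagen prolyl hydroxylase, was lower (median 0.18), and edgeR called 10 of 28 higher and 3 lower.

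**Figure D4:**
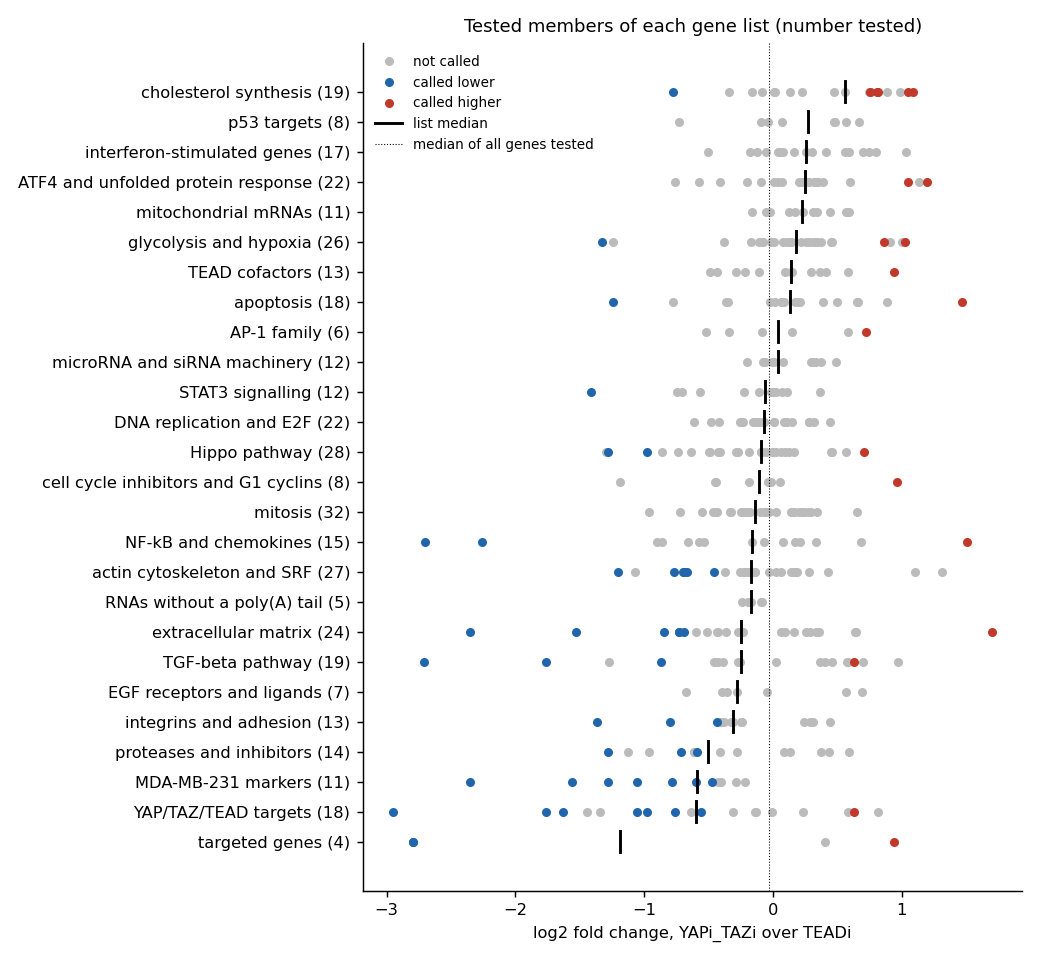
Log2 fold change of YAPi_TAZi over TEADi for every tested member of the lists with at least 4 tested members, with called genes in color, the list median as a bar and the median of all genes (-0.03) as a dotted line. Medians ran from -1.19 for the targeted genes, which the siRNAs fix, and -0.60 for YAP/TAZ/TEAD targets to 0.56 for cholesterol synthesis.

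Of 28 regulators of the Hippo pathway tested, 3 were called, against 4.45% of all genes. MOB1A was higher and WWC1 and PTPN14 were lower (median -0.09), and edgeR called 2 of 30 higher and 5 lower. WWC1 (KIBRA), an upstream activator of the kinases, was at 84.3 and 68.3 normalized counts in YAPi_TAZi and 184 and 184 in TEADi (log2 fold change -1.28, SE 0.30, DESeq2 adjusted p 0.00069), and MOB1A, a kinase cofactor, at 589 and 622 normalized counts in YAPi_TAZi and 349.6 and 389 in TEADi (log2 fold change 0.71, SE 0.16, DESeq2 adjusted p 0.00027). Both calls were lost with effective length offsets (log2 fold changes of -1.20 and 0.46), and that of WWC1 also with a mean count of at least 10. Of 13 TEAD cofactors tested, 1 was called. VGLL4, which competes with YAP for TEAD, was at 192 and 214 normalized counts in YAPi_TAZi and 107 and 104 in TEADi (log2 fold change 0.94, SE 0.27, DESeq2 adjusted p 0.0091), above the 91.1 to 129 of the single knockdowns. That call was lost when TEADi replicate 1, TEADi replicate 2 or YAPi_TAZi replicate 2 was left out. It was also lost with effective length offsets, with a mean count of at least 10 and with protein-coding genes only. Of 18 apoptosis genes, BMF was higher and PMAIP1 (NOXA), also a BH3-only gene, was lower. BMF was at 234 and 212 normalized counts in YAPi_TAZi and 77.8 and 82.4 in TEADi (log2 fold change 1.47, SE 0.27, DESeq2 adjusted p 5.8e-06), and TEADi and YAPi_TAZi were both above the single knockdowns (31.4 to 46.5).

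No gene of the DNA replication and mitosis lists was called between the 2 groups by DESeq2. None of 22 DNA replication genes and none of 32 mitosis genes passed its threshold (medians -0.07 and -0.14). At an unadjusted p under 0.05, DESeq2 had none of the replication and 1 of the mitosis genes, and edgeR called 1, PRC1, a spindle midzone protein (adjusted p 0.00066), lower at 77.5 and 66.4 normalized counts in YAPi_TAZi and 147 and 132 in TEADi. These genes were low in both groups. In all 22 replication genes and in 31 of 32 mitosis genes, all but CCNB2, the 4 libraries of YAPi_TAZi and TEADi lay below the 4 libraries of the single knockdowns, a pattern found in 9.09% of all genes tested. The reverse pattern was found in 7.78% of all genes and in none of these. CENPF, a kinetochore protein, was at 491 and 593 normalized counts in YAPi_TAZi and 422 and 489.5 in TEADi, against 924 and 1219 in YAPi and 1141 and 1271 in TAZi. MCM2, a subunit of the replicative helicase, was at 146 and 123 normalized counts in YAPi_TAZi and 111 and 87.6 in TEADi, against 242 and 198 in YAPi and 310.0 and 290.5 in TAZi. The log2 differences between YAPi_TAZi and TEADi were 0.25 (SE 0.16) for CENPF and 0.44 (SE 0.31) for MCM2. Of 8 cell cycle inhibitor and G1 cyclin genes, CDKN1B (p27), an inhibitor of cyclin-dependent kinases, was higher, at 258 and 281 normalized counts in YAPi_TAZi and 128 and 149 in TEADi (log2 fold change 0.96, SE 0.23, DESeq2 adjusted p 0.00085). The median of that list was -0.11, and edgeR called 3 of 11 lower and 1 higher.

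Other lists held no called gene. These were EGF receptors and ligands (7 tested, median -0.28), p53 targets (8, 0.27), interferon-stimulated genes (17, 0.26), microRNA and siRNA machinery (12, 0.04), RNAs without a poly(A) tail (5, -0.17), mitochondrial mRNAs (11, 0.23), luminal markers (2, 0.12) and basal markers (1, -0.12). In the same order, 3, 0, 5, 2, 1, 2, 1 and 0 of them had an unadjusted DESeq2 p under 0.05. Over all genes, with or without an adjusted p, 1367 had one. EdgeR tested 8, 17, 26, 13, 5, 13, 3 and 5 members and called 3, 1, 5, 2, 1, 2, 1 and 0, against 11.2% of all genes it tested. No leukocyte or stroma marker could be tested. EdgeR called 4 interferon-stimulated genes higher, among them EIF2AK2 (PKR), which senses double-stranded RNA, at 188 and 206 normalized counts in YAPi_TAZi and 114 and 148 in TEADi (edgeR adjusted p 0.0052) and RIGI at 116 and 132 normalized counts in YAPi_TAZi and 61.2 and 80.7 in TEADi (edgeR adjusted p 0.0025). The sets of siRNAs differ between the groups, and their part in these values was not tested.

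The seeds of the printed guides were looked up in 3′ UTRs, since an siRNA can lower other mRNAs that pair with its seed. The search was chosen after the data were seen and is a description, with YAP1 and WWTR1 left out. In the 3′ UTR of the canonical transcript, the match to the TAZ seed, GGAACTT, was present in 22.4% of the 219 lower genes, 10.5% of the 143 higher genes and 12.4% of the 8071 genes with a 3′ UTR. The match to the YAP seed, GTCAGAG, was present in 18.7%, 6.99% and 11.5%. EdgeR calls were searched only among genes that DESeq2 tested, 638 lower and 544 higher genes with a 3′ UTR. Their shares were 22.7% and 13.6% for TAZ and 19.6% and 12.3% for YAP. UTR lengths differ between these sets (medians of 1872, 2485 and 1451 bases), so the matches were also counted per kilobase. There were 0.119, 0.0402 and 0.0663 TAZ seed matches and 0.113, 0.0276 and 0.0635 YAP seed matches per kilobase in lower, higher and all genes. Matches to guide bases 12 to 18 did not have this order, with 0.00607, 0.00502 and 0.00804 per kilobase for TAZ and 0.105, 0.105 and 0.0966 for YAP. As shares of genes they were present in 1.37%, 1.4% and 1.54% for TAZ and in 18.7%, 25.2% and 16.4% for YAP. The TAZ shares rest on 3 lower, 2 higher and 124 of all genes, too few to set an order. The share of lower genes with a match to YAP bases 12 to 18 equalled that with a YAP seed match. Over all genes with a 3′ UTR, the median log2 fold change of YAPi_TAZi over TEADi was -0.08 with and -0.02 without a TAZ match. It was -0.05 with and -0.03 without a YAP match.

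**Figure D5:**
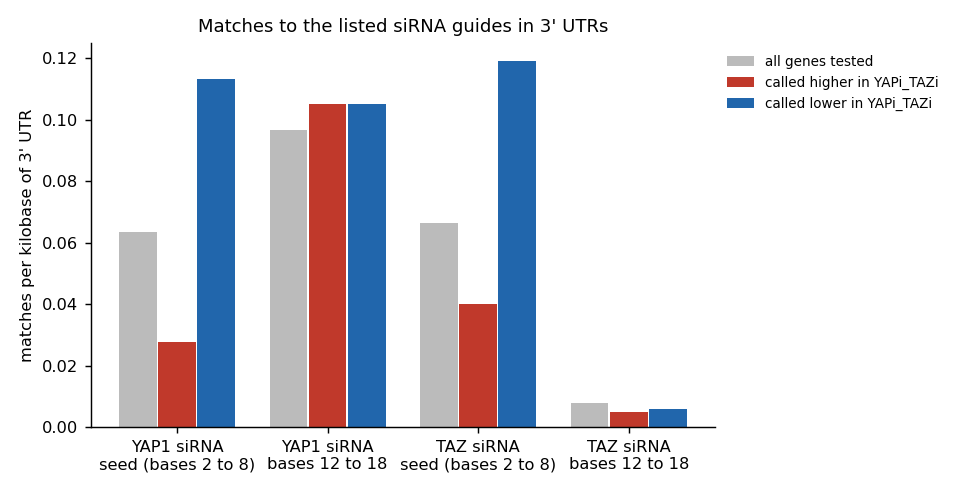
Matches per kilobase of 3′ UTR to the seed (guide bases 2 to 8) and to guide bases 12 to 18 of the listed YAP and TAZ siRNAs, for all genes tested, genes called higher and genes called lower in YAPi_TAZi. For both seeds the bar of the lower genes is the tallest (0.113 and 0.119), and for bases 12 to 18 the 3 bars of each siRNA do not show that order. The TAZ bars for bases 12 to 18 rest on matches in 3 lower and 2 higher genes, too few to set an order.

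The YAPi and TAZi libraries, which had no part in choosing these genes, were read for the same matches. Among all genes tested, the median log2 level in YAPi minus that in TAZi was 0.153 for the 788 genes with a TAZ seed match only, -0.077 for the 717 with a YAP seed match only, 0.065 for the 210 with both and 0.011 for the 6356 with neither. In replicate 1 alone these medians were 0.155, -0.090, 0.061 and 0.007, and in replicate 2 alone 0.162, -0.087, 0.070 and 0.017. For YAPi_TAZi over TEADi the medians of the same 4 sets were -0.073, -0.032, -0.159 and -0.023. Genes with a match to 1 seed thus stood lower, at the median, in the single knockdown of the gene that this siRNA targets, by these small amounts. TGFBR1 held 2 YAP and 1 TAZ seed matches, and DENND6A and IPO8, both low in TAZi, held 1 TAZ match each. CCN1, DKK1, CXCL8, PTX3, GLTP and JKAMP held none. PTPN14 held 3 YAP matches but was not lower in YAPi than in TAZi (means of 513 and 341 normalized counts). TGFB2, ITGA2, ITGAV and TAGLN2 held 1 TAZ match each. ITGAV (means of 291 in TAZi and 701 in YAPi) and TAGLN2 (268 and 613.5) were lower in TAZi. TGFB2 (180 and 163) and ITGA2 (326 and 276) were not. Higher genes held matches too. FOSL2 held 2 YAP and 1 TAZ matches, TGFBR2 held 1 YAP match, and PTP4A1, ADGRF1 and MSMO1 held 1 TAZ match each. The part of seed pairing in the difference of any of these genes was not tested.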

How the data were processed

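Messenger RNA was measured by RNA-seq in MDA-MB-231 cells after siRNA knockdown. Per the labels and the study's methods, total RNA went into TruSeq Ribo Profile libraries, reads were trimmed and aligned with STAR to GENCODE version 30 (hg38, up to 20 alignments per read), and genes were quantified with RSEM. The versions of STAR and RSEM are not given in the sources used here. The authors deposited for each library RSEM expected counts, estimated read numbers that are not scaled to depth and can be fractional. The deposited TPM divide these by effective gene length and scale the library to a fixed total. Reads that fit more than 1 gene are shared out by probability, so close paralogs and pseudogenes are less certain. The counting is not stated to use strand, and many named genes, such as YAP1, TEAD1, CCN2, TGFBR1 and DKK1, overlap an antisense gene in the annotation, whose reads could not be told apart. Of 60725 Ensembl identifiers, 93.1% matched GENCODE version 44, which gave symbols and coordinates on the same build. The rows with no such identifier held at most 0.00187% of counts and were left out.

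Groups and replicate numbers came from the sample titles. Expected counts were rounded, and YAPi_TAZi was compared with TEADi over the 4 libraries by the Wald test of DESeq2 (version 1.42.0 under R 4.3.3), which kept its default size factors and filtering, with the replicate number as a block. A gene was called where its p, adjusted over all genes tested by Benjamini-Hochberg, was under 0.01. Log2 fold changes are YAPi_TAZi over TEADi, without shrinkage, and 95% intervals are Wald intervals. The numbers pair the samples in these data: deviations of same-numbered libraries from their group means correlated at 0.678 to 0.727 over the 6998 genes whose mean count reached 50, although the labels do not say what a number marks. The titles do not say that replicates were separate cultures, so p-values measure the spread between these libraries, which may be technical. Printed levels use size factors over the 8 knockdown libraries of the set. Counting intervals are exact and cover counting error only.

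Alternatives were no replicate block, TMM size factors, a minimum mean count of 10, the quasi-likelihood test of edgeR (version 4.0.16), effective length offsets, 1 fit over the 8 knockdown libraries, protein-coding genes only, and leaving out each library in turn. The DESeq2 and edgeR scripts were tested on simulated data. The 29 gene lists, their members and the rule for named genes were chosen with earlier results of these data known, and no set test was run. The rule named 10 genes set in advance, the 12 protein-coding and 2 non-coding genes with the highest and the lowest fold change among calls with a mean count of at least 50 and 1 direction in both pairs, and up to 4 genes of each list. Genes named outside it (FJX1, F3, MYOF, CYP51A1, LAMC1, COL5A1, LOXL2, MYL12A, FLNA, VIM, CAV1, NAMPT, CCNB2, MYL9, CNN2, SRF and YAP1P1) were chosen after their values were seen. Some genes that the rule or the lists hold are not reported here by name, and the counts include them. Promoters came from RefSeq and 3′ UTRs from GENCODE version 44. Control siRNA libraries and all other samples of the series were not used here.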

Additional observations from a re-analysis of the deposited data

How the results depend on the processing

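The direction of the 372 calls held under 6 of 7 alternative fits over all libraries, with 1 gene of opposite sign under effective length offsets, and no named gene changed direction in a call. The number of calls moved. EdgeR called 1260 genes (584 higher, 676 lower) and the fit over the 8 knockdown libraries 936 (409 and 527). A mean count of at least 10 with no independent filtering left 220 (85 and 135), effective length offsets 128 (50 and 78, with fewer genes tested), and protein-coding genes only gave 255, of which 87 were higher. Of the 372, all were also called by edgeR and 370 by the 8-library fit. TMM size factors gave 350 calls. Without the replicate block, DESeq2 called 446 genes, 184 higher and 262 lower, including 350 of the 372, so the pairing did not move the count by over 1.5 times. Leaving out 1 library at a time, in the 8-library fit where the lone sample is assumed to vary like the rest, gave 325 to 405 calls (133 to 161 higher, 188 to 244 lower), well under the 936 of that fit whichever of the 4 libraries was left out. Among named genes, the calls of VGLL4, NAMPTP1, OIP5-AS1, SKIL, TGFBR2, PMAIP1 and IDI1 were among those lost on leaving out at least 1 library, and ANKRD1 was called without TEADi replicate 1 or YAPi_TAZi replicate 1. Named genes most often lost their call under effective length offsets (24 of 88), and without the replicate block only ITGA3 and NAMPTP1 did. Of the list medians, that of TEAD cofactors alone changed sign (0.14, and -0.06 with effective length offsets). The shares of calls that were higher ran from 34.1% to 46.3%. Depth limits these results, since tested genes had a median mean count of 90.3 and the least covered call 30, so a gene not called cannot be taken as unchanged.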
